A study of Mus musculus with 7 samples.

Results

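The chondroitin sulfate proteoglycans, tenascins and link proteins of the glial scar were followed in the contused spinal cord of mice labelled *Bmal1*-/- and of WT mice. The 10 genes were chosen by name and not by a cut on their values, but with earlier results of these data known. They are the lecticans *Acan*, *Bcan*, *Ncan* and *Vcan*, the receptor-type proteoglycan *Ptprz1*, the tenascins *Tnc* and *Tnr*, and the link proteins *Hapln1*, *Hapln2* and *Hapln4*, out of 21965 genes in the count table. *Ncan* was the member with the largest positive difference, at 276 ± 32.5 CPM (gene counts scaled to library size; SD, n = 3) in libraries labelled *Bmal1*-/- against 149 ± 29.5 CPM (SD, n = 4) in WT. *Tnc* moved the other way, at 105 ± 17.2 CPM (SD, n = 3) against 193 ± 55.7 CPM (SD, n = 4). Neither passed an adjusted p of 0.05 in the quasi-likelihood test of edgeR (Benjamini-Hochberg adjustment over all genes tested), and none of the 10 genes did.

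RNA came from a 5 mm cord segment around a T9 contusion (50 kdyn, with 400 to 600 µm of displacement) taken at day 3 post-injury (dpi 3). Collection fell at ZT 3 to 5 of the light cycle, in mice aged 8 to 10 weeks. The 3 mice labelled *Bmal1*-/- (2 females, 1 male) carried the germline null allele Arntltm1Bra on a C57BL/6J background and were bred from heterozygotes, and the 4 WT mice (2 females, 2 males) were C57BL/6J animals that were mostly purchased, with 1 littermate of the knockouts among them. Every library came from 1 mouse with an injured cord. The p-values thus set the genotype difference against the variation between libraries, in which differences between mice and counting error are mixed. They say nothing of the response to injury itself. The germline allele is carried by every cell type, and a bulk segment does not show which cells a transcript came from.

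Library totals ran from 38529644 to 44096737 counts, and the 10 genes were counted from 90 times (*Hapln1* in WT replicate 3) to 12128 times (*Ncan* in *Bmal1*-/- replicate 1). The targeted gene was not counted lower in the libraries labelled *Bmal1*-/-. *Arntl*, which encodes BMAL1, was counted at 23.6 ± 0.941 CPM (SD, n = 3) in libraries labelled *Bmal1*-/- and 13.8 ± 1.5 CPM (SD, n = 4) in WT, which is 0.77 higher on the log2 scale (SE 0.10, adjusted p = 0.0155). The part of the gene that the allele removes is not given in the sources used here, and a count over the whole gene does not read that part alone. *Arntl* also shares 33 exon bases with the antisense gene Gm45355. The *Arntl* count therefore does not check the labels. *Nr1d1* and *Dbp*, which BMAL1 is known to activate, were lower in each library labelled *Bmal1*-/-, at 6.0 ± 1.11 against 34.2 ± 3.47 CPM and 8.45 ± 0.566 against 30.4 ± 6.2 CPM (SD, n = 3 and n = 4). Their differences were -2.51 (SE 0.15, adjusted p = 0.000456) and -1.85 (SE 0.16, adjusted p = 0.00328) on the log2 scale, the way the labels name the groups. WT replicate 3, a male, stood apart from the other libraries on the leading principal components, and it held the lowest value of the 7 libraries for 35.9% of genes tested and the highest for 33.9%. *Bmal1*-/- replicate 3, also a male, came next, lowest for 26.5% and highest for 26.5%. It lay at the other end of the first component, at -48.6 against 51.4 for WT replicate 3. In the remaining libraries these shares reached 9.34% at most.

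Lecticans are large secreted proteoglycans that bind hyaluronan at one end and tenascin-R at the other, and link proteins lock them onto the hyaluronan chain. In the healthy cord they form perineuronal nets and the matrix of the node of Ranvier. After injury, reactive astrocytes and oligodendrocyte precursors (OPCs) deposit chondroitin sulfate proteoglycans around the lesion, where the sulfated chains act on axonal receptors such as PTPσ (*Ptprs*) and inhibit regrowth. Tenascin-C is a matrix glycoprotein that is sparse in the adult cord and rises in injured tissue.

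BMAL1 pairs with CLOCK on the E-box, and the clock also acts through ROR elements and D-boxes. The stretches of 250 bases before the RefSeq start site (GRCm38.p6) are shown for *Ncan* and *Tnc*, the members with the largest positive and negative difference. The *Ncan* stretch lies at chr8:70120845-70121094 and the *Tnc* stretch at chr4:64047016-64047265, both on the minus strand and written 5′ to 3′.
Ncan: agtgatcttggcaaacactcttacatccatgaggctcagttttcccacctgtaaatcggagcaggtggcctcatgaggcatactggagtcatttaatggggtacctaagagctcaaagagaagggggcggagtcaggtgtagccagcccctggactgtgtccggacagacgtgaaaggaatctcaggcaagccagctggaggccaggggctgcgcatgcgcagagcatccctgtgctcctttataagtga
Tnc: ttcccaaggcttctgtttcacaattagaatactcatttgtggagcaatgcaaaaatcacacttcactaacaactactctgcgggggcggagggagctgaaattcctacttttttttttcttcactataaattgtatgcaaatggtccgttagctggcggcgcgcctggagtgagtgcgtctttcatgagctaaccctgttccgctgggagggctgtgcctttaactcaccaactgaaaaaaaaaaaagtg
No letter is in capitals because neither stretch holds any of the motifs searched. The motifs, read on both strands, were the E-box CACGTG, the related CACGTT, the ROR half-site AGGTCA and the D-box TTATGTAA. Promoters were matched for 9 of the 10 genes (not *Hapln4*), and 0 of the 9 held any of them. Among 32851 mouse promoters of the same length, 6.02% held CACGTG, 3.85% CACGTT, 14.0% AGGTCA and 0.819% TTATGTAA. The GC content was 54.4% for the *Ncan* stretch and 44.8% for that of *Tnc*. These letters describe this window and not binding by any factor.

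Levels of different genes were compared as CPM per kilobase of exon, here called the per-length level. In WT the order by this level began with *Hapln2* at 79.1 ± 12.3, *Bcan* at 32.3 ± 7.44, *Tnc* at 24.9 ± 7.17 and *Ncan* at 20.8 ± 4.10 (SD, n = 4). It went on with *Hapln4* at 15.4 ± 5.62, *Ptprz1* at 14.8 ± 3.15 and *Tnr* at 14.2 ± 3.29, and ended with *Vcan* at 8.0 ± 0.279, *Acan* at 2.55 ± 0.874 and *Hapln1* at 0.844 ± 0.315 (SD, n = 4). *Hapln2* stood above *Bcan* in every WT library, and *Vcan*, *Acan* and *Hapln1* were likewise separate from their neighbours in this order. From *Bcan* down to *Tnr*, the ranges of neighbours overlapped. In libraries labelled *Bmal1*-/- the order began with *Hapln2* at 74.2 ± 4.23 and *Ncan* at 38.3 ± 4.52, then *Bcan* at 28.1 ± 4.55 and *Hapln4* at 24.6 ± 3.99 (SD, n = 3). *Tnc* stood at 13.6 ± 2.21, below *Tnr* at 19.4 ± 1.59 and *Ptprz1* at 17.7 ± 1.23 (SD, n = 3). The gap between *Ncan* and *Bcan* in these libraries narrowed to 38.3 against 36.3 with the longest transcript in place of all exons. *Ptprz1*, with a short and a long isoform, moved most, from 14.8 to 26.1 in WT.

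**Figure D1:**
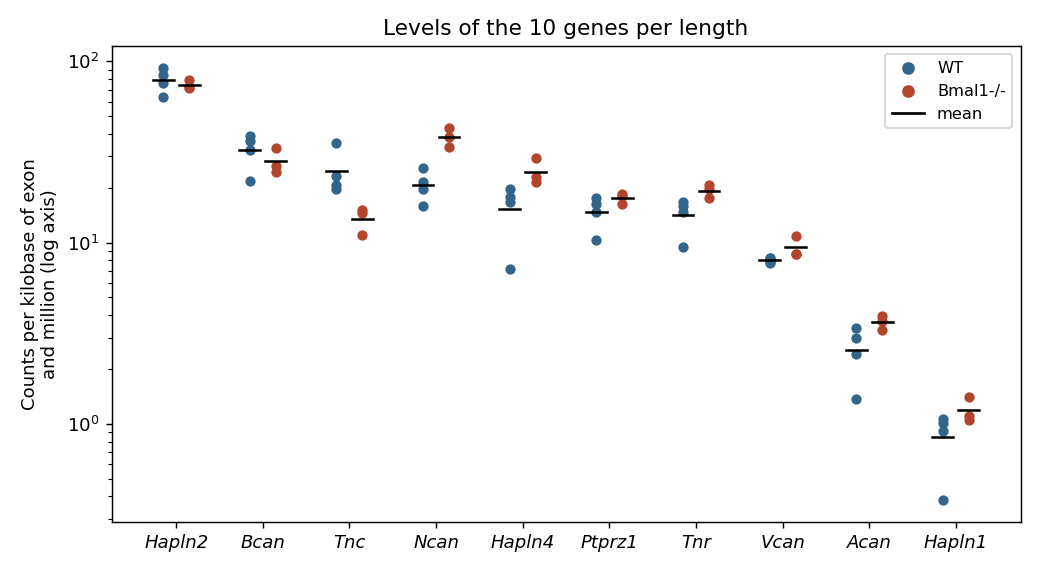
Per-length level (CPM per kilobase of exon; vertical log axis) of the 10 genes, ordered by WT mean, with a point for each library (blue WT, n = 4; red labelled *Bmal1*-/-, n = 3) and a bar at the mean. *Hapln2* is at 79.1 and *Hapln1* at 0.844 in WT, and *Ncan* (20.8 to 38.3) and *Tnc* (24.9 to 13.6) change places relative to the genes around them.

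Over the 10 genes, 7 had a positive and 3 a negative log2 fold change, so 70.0% were positive against 48.9% of the 15743 genes tested. Their median was 0.35, against -0.01 over all genes tested. All 10 genes passed the filter on low counts. None passed an adjusted p of 0.05, where 1.57% of genes tested did (247 genes). At an unadjusted p of 0.05, 4 of the 10 passed (*Ncan*, *Tnc*, *Vcan* and *Tnr*), against 20.9% of genes tested. DESeq2 called 2 of the 10 (*Ncan* and *Tnc*), against 9.13% of the genes it tested, and limma-voom called 0. The groups did not overlap for 5 of the 10, against 26.9% of genes tested. *Ncan*, *Hapln4*, *Tnr* and *Vcan* were higher in each library labelled *Bmal1*-/- (13.4% of genes tested were), and *Tnc* was lower in each (13.5%).

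**Figure D2:**
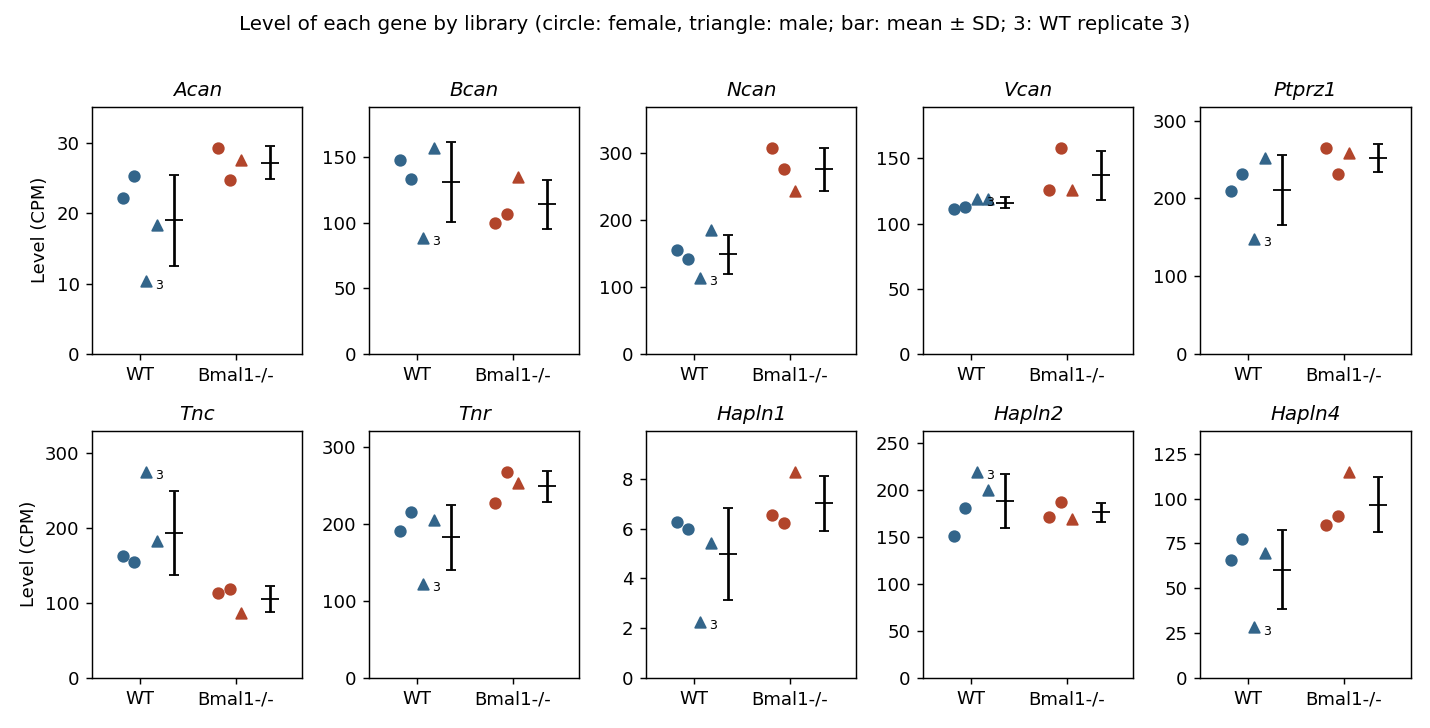
Level in CPM (vertical axis, from 0) of each gene in each library, by group, with circles for females, triangles for males and the mean ± SD as a bar (n = 4 WT, n = 3 labelled *Bmal1*-/-). *Ncan*, *Tnr*, *Vcan* and *Hapln4* do not overlap and lie higher in the libraries labelled *Bmal1*-/-, *Tnc* lies lower, and WT replicate 3 (marked 3) is the lowest library for 7 of the 10 genes.

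*Ncan* encodes neurocan, a lectican of the nervous system that reactive astrocytes secrete. It lies on chromosome 8 from 70093085 to 70120873 of GRCm38 on the minus strand (ENSMUSG00000002341). The 3 libraries labelled *Bmal1*-/- held 308, 276 and 243 CPM. The WT libraries held 155, 142, 114 and 186 CPM. The groups did not overlap. The level was 1.85-fold higher, or 0.88 on the log2 scale (SE 0.16, 95% interval 0.50 to 1.27, adjusted p = 0.0518 by edgeR). That adjusted p sat next to the threshold. It was 4.18e-05 with DESeq2, 0.0475 with RLE size factors, 0.0216 without WT replicate 3 and 0.0474 without WT replicate 4, and reached 0.214 at most over the alternatives. The log2 fold change stayed between 0.78 and 1.01 with each library left out. Summed over 12 astrocyte markers, the level was 18733 to 20985 CPM in libraries labelled *Bmal1*-/- and 12509 to 18217 CPM in WT, with 0 of 12 called, none at 0 and a median log2 fold change of 0.17. *Gfap*, the main marker of reactive astrocytes, was at 11642 ± 1419 CPM (SD, n = 3) against 8702 ± 1284 CPM (SD, n = 4), with an adjusted p of 0.270. The part of the astrocyte level in the *Ncan* difference was not tested. Fewer cells of a type and less RNA per cell cannot be told apart in these bulk samples, for *Ncan* or for any gene named here.

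*Bcan* encodes brevican, a lectican of astrocytes and of the matrix around synapses. Its values were 99.9, 107 and 135 CPM in libraries labelled *Bmal1*-/- and 148, 133, 88.5 and 157 CPM in WT. WT replicate 3 was the lowest of the 7 and the other WT libraries lay at or above the middle of the range, so the groups overlapped. The log2 fold change was -0.20 (SE 0.20, 95% interval -0.68 to 0.27, adjusted p = 0.543), and it was -0.35 without WT replicate 3, -0.34 without *Bmal1*-/- replicate 3, and -0.11 without WT replicate 4 or *Bmal1*-/- replicate 1. Thus for *Bcan* a change from 0.68 lower to 0.27 higher on the log2 scale could not be told apart from none.

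*Vcan* encodes versican, a lectican that OPCs and fibroblasts make. Libraries labelled *Bmal1*-/- held 126, 158 and 126 CPM. WT libraries held 111, 113, 119 and 119 CPM, the narrowest spread of the 10 genes in WT (coefficient of variation 3.49%). Each library labelled *Bmal1*-/- was above each WT library, but 1 of them, replicate 2, carried much of the difference. The log2 fold change was 0.24 (SE 0.09, 95% interval 0.02 to 0.46, adjusted p = 0.210), and it was 0.12 without *Bmal1*-/- replicate 2. That library also held 2323 CPM summed over 10 fibroblast and meningeal markers, where the others labelled *Bmal1*-/- held 392 and 312 and WT held 1182 to 1987. All 10 of those markers had a negative log2 fold change, none was called and none was at 0. The 10 OPC markers summed to 1120 to 1246 CPM against 1044 to 1140 in WT. The part of either cell type in the *Vcan* values was not tested.

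*Acan* encodes aggrecan, the lectican that marks perineuronal nets. The level was 29.3, 24.7 and 27.6 CPM in libraries labelled *Bmal1*-/-, and 22.2, 25.3, 10.3 and 18.3 CPM in WT. WT replicate 3 was far below the others, and WT replicate 2 fell inside the range of the libraries labelled *Bmal1*-/-. *Acan* differed by 0.51 on the log2 scale (SE 0.27, 95% interval -0.13 to 1.15, adjusted p = 0.305), and 0.31 without WT replicate 3.

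The make-up of the lectican pool differed between the groups. *Ncan* supplied 53.5%, 48.5% and 42.5% of lectican counts per kilobase in libraries labelled *Bmal1*-/-, and 31.4%, 31.1%, 33.6% and 34.4% in WT. *Bcan* supplied 30.7%, 33.5% and 41.8% against 53.0%, 51.2%, 46.0% and 51.4%. Both shares were separate between groups, with means of 48.2% ± 5.49 (SD, n = 3) against 32.6% ± 1.61 (SD, n = 4) for *Ncan* and 35.3% ± 5.79 against 50.4% ± 3.02 for *Bcan*. *Vcan* supplied 11.9% ± 1.69 against 13% ± 3.02 and *Acan* 4.58% ± 0.364 against 3.96% ± 1.10, and both of these overlapped. The ratio of *Ncan* to *Bcan* per kilobase was 1.74, 1.45 and 1.02 in libraries labelled *Bmal1*-/- and 0.593, 0.607, 0.730 and 0.669 in WT. WT replicate 3, low for both genes, had a ratio close to the other WT libraries. With the longest transcript as the length the ratio was 1.35, 1.12 and 0.786 against 0.459 to 0.565, so the groups stayed apart. The sum of the lecticans was 79.0 to 80.1 by the per-length level in libraries labelled *Bmal1*-/- and 47.3 to 75.0 in WT. These shares and sums were described without a test.

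*Ptprz1* encodes a receptor-type tyrosine phosphatase whose shed and secreted forms, among them phosphacan, carry chondroitin sulfate. It stood at 265, 232 and 258 CPM in libraries labelled *Bmal1*-/-, and at 210, 232, 148 and 252 CPM in WT. The groups overlapped, with WT replicate 4 inside the range of the libraries labelled *Bmal1*-/- and WT replicate 3 far below. *Ptprz1* differed by 0.26 on the log2 scale (SE 0.17, 95% interval -0.14 to 0.66, adjusted p = 0.382), and 0.12 without WT replicate 3.

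*Tnc* (ENSMUSG00000028364) encodes tenascin-C and lies on chromosome 4 from 63959785 to 64047015 on the minus strand. Libraries labelled *Bmal1*-/- held 113, 118 and 85.9 CPM. WT libraries held 162, 154, 275 and 182 CPM. The groups did not overlap, and WT replicate 3 was the highest of the 7. The fitted fold was 0.545, or -0.87 on the log2 scale (SE 0.22, 95% interval -1.40 to -0.35, adjusted p = 0.109). Without WT replicate 3 it was smaller, -0.66, and passed the threshold (adjusted p = 0.0358). DESeq2 gave an adjusted p of 0.00535. The exons of *Tnc* share 176 bases with an antisense gene, 8030451A03Rik, and the strand setting of the counting is not given in the sources used here. Beside *Tnc*, the 10 endothelial markers summed to 526 to 582 CPM in libraries labelled *Bmal1*-/- and 613 to 1005 CPM in WT, the latter in WT replicate 3. All 10 were negative with a median of -0.52, 1 of 10 was called and none was at 0. The 10 microglia and macrophage markers summed to 2329 to 2931 CPM against 2332 to 4096 CPM, again highest in WT replicate 3, with 9 of 10 negative and 0 called. The 9 pericyte and smooth muscle markers summed to 377 to 459 against 468 to 587 CPM, also highest in WT replicate 3, with 6 negative. The 10 fibroblast and meningeal markers had a median of -1.07 and were not highest in that library. The 12 astrocyte markers went the other way, with a median of 0.17, 7 positive, and their lowest sum in WT replicate 3. The part of any of these cells in the *Tnc* difference was not tested.

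*Tnr* encodes tenascin-R, which cross-links lecticans and is made by oligodendrocytes and some neurons. Libraries labelled *Bmal1*-/- held 227, 268 and 253 CPM, and WT libraries held 191, 216, 122 and 205 CPM. The groups did not overlap, although *Bmal1*-/- replicate 1 and WT replicate 2 were close. *Tnr* differed by 0.45 on the log2 scale (SE 0.19, 95% interval 0.00 to 0.89, adjusted p = 0.237), and 0.29 without WT replicate 3. *Tnr* exons share 443 bases with the antisense gene Gm38039. The 2 tenascins thus had opposite signs. The ratio of *Tnc* to *Tnr* per kilobase was 0.819, 0.729 and 0.562 in libraries labelled *Bmal1*-/- and 1.41, 1.18, 3.75 and 1.47 in WT, so *Tnr* exceeded *Tnc* in each of the former and *Tnc* exceeded *Tnr* in each of the latter. The mean ratio was 0.703 ± 0.130 (SD, n = 3) against 1.95 ± 1.2 (SD, n = 4), and the WT mean was 1.36 ± 0.152 (SD, n = 3) without WT replicate 3. With the longest transcript it was 0.583 to 0.850 against 1.23 to 3.89. This ratio was not tested.

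*Hapln4* (ENSMUSG00000007594) encodes a link protein of brevican-rich nets. It stood at 85.1, 90.4 and 115 CPM in libraries labelled *Bmal1*-/-, and at 65.6, 77.7, 28.1 and 69.7 CPM in WT. The groups did not overlap, and WT replicate 3 held well under the level of any other library. The log2 fold change was 0.68 (SE 0.32, 95% interval -0.06 to 1.42, adjusted p = 0.262), and 0.44 without WT replicate 3. *Hapln1*, which encodes the cartilage link protein that also builds perineuronal nets, held 6.56, 6.22 and 8.30 CPM against 6.27, 5.99, 2.25 and 5.42 CPM. WT replicate 1 overlapped the libraries labelled *Bmal1*-/-, and the log2 fold change was 0.50 (SE 0.33, 95% interval -0.28 to 1.27, adjusted p = 0.383), or 0.25 without WT replicate 3. *Hapln2*, which encodes the link protein of nodes of Ranvier and is made by oligodendrocytes, held 171, 187 and 169 CPM against 151, 180, 219 and 200 CPM. Its groups overlapped throughout, with a log2 fold change of -0.09 (SE 0.13, 95% interval -0.39 to 0.20, adjusted p = 0.661), or -0.19 without WT replicate 1 and -0.01 without WT replicate 3. The 10 oligodendrocyte markers summed to 24283 to 29845 CPM against 24463 to 35690 CPM, highest in WT replicate 3 as *Hapln2* was, with 7 of 10 positive, 0 called and none at 0.

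Neuronal markers were lowest in WT replicate 3, the library that also held the lowest value of 7 of the 10 genes. Summed over 12 neuronal markers, WT replicate 3 held 2396 CPM, the other WT libraries 4354 to 5938 CPM and the libraries labelled *Bmal1*-/- 6030 to 7306 CPM. All 12 had a positive log2 fold change with a median of 0.59, 0 were called and none was at 0. Centred on the mean of the 7 libraries, WT replicate 3 was at -1.21 for the neuronal list, -1.06 for *Acan*, -1.28 for *Hapln1*, -1.33 for *Hapln4* and -0.76 for *Tnr* on the log2 scale. It was at -0.75 for *Ncan*, -0.60 for *Ptprz1* and -0.46 for *Bcan*, with the astrocyte list at -0.56. *Tnc*, at 0.91, and *Hapln2*, at 0.27, were the members that peaked there. Its part in the genotype difference is given by the values without it, under which *Acan*, *Hapln1*, *Hapln4*, *Tnr* and *Ptprz1* shrank by over 1.5-fold on the log2 scale while *Ncan* was at 0.78. Without *Bmal1*-/- replicate 3, *Tnc* shrank to -0.75, *Hapln4* to 0.54 and *Hapln1* to 0.36. *Ncan* grew to 0.97, *Vcan* to 0.29 and *Bcan* to -0.34 without that library, and the other members moved by less. Muscle RNA also differed between the groups. The 10 skeletal muscle markers summed to 5.85 to 7.74 CPM in libraries labelled *Bmal1*-/- and 55.1 to 72.7 CPM in WT, with 7 of 10 called lower and *Myh4* at 0 in some libraries. Its part in these results was not tested, and neither was that of 8 Schwann cell markers (993 to 1101 against 1059 to 1380 CPM, with 2 called lower), 9 pericyte and smooth muscle markers (377 to 459 against 468 to 587 CPM, with 0 called) or the cartilage, bone and tendon markers (90.5 to 116 against 99.7 to 110 CPM, with 1 called lower).

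**Figure D3:**
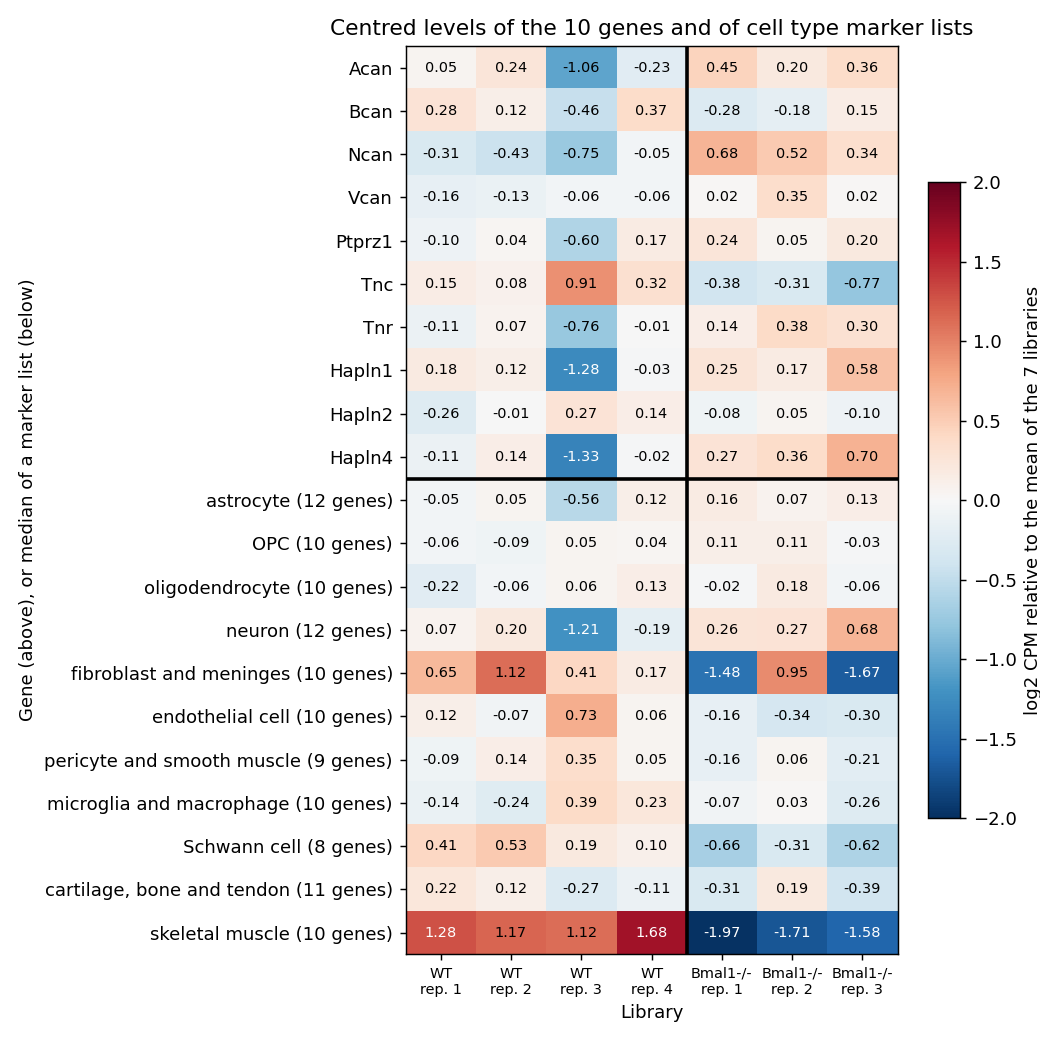
Log2 CPM relative to the mean of the 7 libraries (colour and printed value) for the 10 genes above the line and for the median of each cell type marker list below it, with the 4 WT libraries at the left and the 3 labelled *Bmal1*-/- at the right. WT replicate 3 is low for *Hapln4* (-1.33), *Hapln1* (-1.28), *Acan* (-1.06) and the neuronal list (-1.21), whereas *Tnc* is high there (0.91).

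Sex was unequal between the groups, so the differences were also set out within each sex, with 2 against 2 females and 1 against 2 males. *Ncan* was higher by 0.97 in females and 0.70 in males on the log2 scale, and its groups did not overlap in either. *Tnc* was at -0.46 in females and -1.41 in males, where the WT males include replicate 3. *Tnr* was at 0.29 and 0.63, *Vcan* at 0.34 and 0.08, *Ptprz1* at 0.17 and 0.37, and *Hapln4* at 0.29 and 1.23. *Acan* was at 0.18 and 0.95 and *Hapln1* at 0.06 and 1.11, so both were smaller in females. *Bcan*, at -0.43 and 0.14, and *Hapln2*, at 0.12 and -0.31, had opposite signs in the sexes, which was not tested. Every male value rests on 1 library labelled *Bmal1*-/- and on a WT mean that includes replicate 3, the lowest library for 7 of the 10 genes. For *Bcan* the male labelled *Bmal1*-/- held 135 CPM, between WT replicate 3 at 88.5 and WT replicate 4 at 157. A difference between the sexes thus cannot be told apart from the deviation of WT replicate 3. With sex as a covariate none of the 10 genes passed an adjusted p of 0.05.

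**Figure D4:**
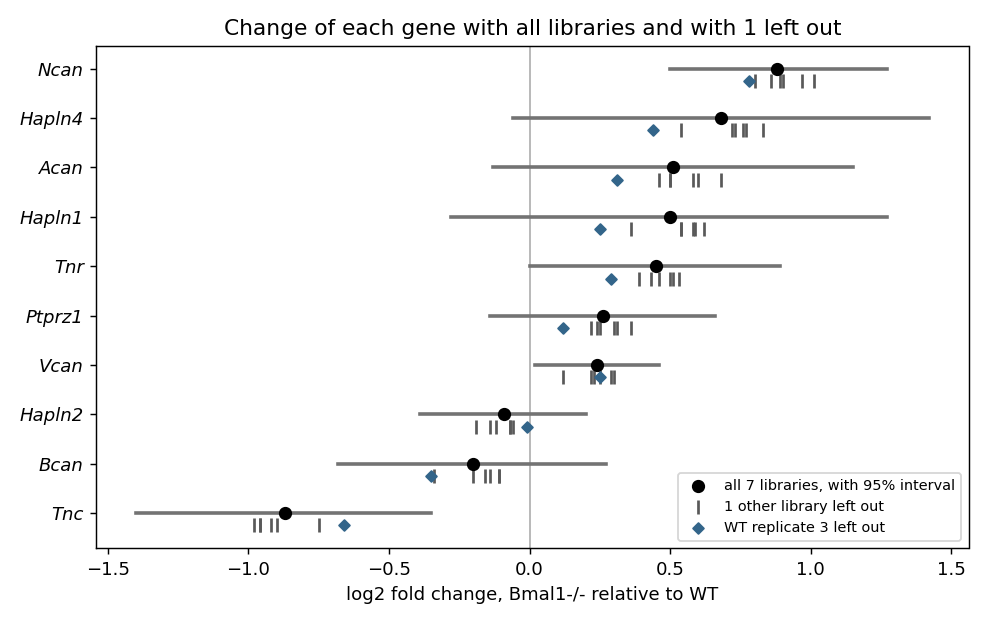
Log2 fold change (horizontal axis) of each gene with its 95% interval from all 7 libraries (black), and with each library left out in turn (ticks, and a blue diamond for WT replicate 3). *Ncan* stays between 0.78 and 1.01 and *Tnc* between -0.98 and -0.66, while the intervals of *Hapln4*, *Acan*, *Hapln1*, *Ptprz1*, *Hapln2* and *Bcan* include 0.

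Each lectican gene has a link protein gene as its neighbour, with 0 coding genes between them. *Ncan* and *Hapln4* are 2222 bases apart on chromosome 8, with their 3′ ends facing each other, and their log2 fold changes were 0.88 and 0.68. *Bcan* and *Hapln2* are 21519 bases apart on the same strand of chromosome 3, and theirs were -0.20 and -0.09. *Vcan* and *Hapln1* face each other at 43659 bases on chromosome 13, and theirs were 0.24 and 0.50. *Acan* ends 2 bases from *Hapln3* on chromosome 7, and theirs were 0.51 and 0.17 (*Hapln3* at 2.73 against 2.42 CPM, adjusted p = 0.424). Neighbours had the same sign in each of these 4 pairs, a description over few pairs and without a test.

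Genes that build, bind or cut these proteoglycans were taken from 5 lists with 98 genes, of which 96 were tested. In edgeR's quasi-likelihood test 4 of the 96 were lower and 0 were higher, so 4.17% were lower against 0.915% of genes tested. At an unadjusted p of 0.05, 27 of the 96 passed, where 20.9% of genes tested did. All 4 calls depended on single libraries. No partner gene passed without *Bmal1*-/- replicate 1, without *Bmal1*-/- replicate 3 or without WT replicate 1, while 11 passed without WT replicate 3 and 1 without WT replicate 4. With DESeq2, 18 passed (14 lower and 4 higher), where 9.13% of the genes it tested did. Of the partner genes named here, *Chsy1*, *Stab2*, *Itgav*, *Adamts8* and *Timp3* have an antisense neighbour, sharing 148, 141, 634, 489 and 1733 exon bases with it.

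Among 14 other chondroitin sulfate proteoglycans and matrix partners, 0 passed, 6 were positive and 8 negative, and the median log2 fold change was -0.04. The lowest was *Dcn*, which encodes the fibroblast proteoglycan decorin, at 80.8 ± 77.0 CPM (SD, n = 3) against 189 ± 62.5 CPM (SD, n = 4). On the log2 scale it stood at -1.23 (SE 0.60, adjusted p = 0.279), and its values in libraries labelled *Bmal1*-/- ran from 35.1 to 170 CPM. Without *Bmal1*-/- replicate 2 it stood at -2.38 and passed (adjusted p = 0.0368). The highest was *Spock1*, which encodes testican-1, at 201 ± 29.8 against 144 ± 43.5 CPM, with a log2 fold change of 0.48 (adjusted p = 0.311), or 0.28 without WT replicate 3.

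Of 22 tested genes that make and sulfate the chondroitin chain, 0 passed, 18 were negative and 4 positive, with a median of -0.12. Their summed level was 787 to 810 CPM in libraries labelled *Bmal1*-/- and 832 to 872 CPM in WT, so the sums did not overlap. *Chsy1*, a synthase that extends the chain, was the lowest at 22.1 ± 1.00 CPM (SD, n = 3) against 30.9 ± 3.85 CPM (SD, n = 4), or -0.48 on the log2 scale (SE 0.11, adjusted p = 0.0762). *Chsy3*, a related synthase, was the highest at 2.34 ± 0.586 against 1.63 ± 0.382 CPM, a log2 fold change of 0.52 (SE 0.25, adjusted p = 0.274), or 0.31 without *Bmal1*-/- replicate 3.

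Of 16 tested genes of hyaluronan synthesis, breakdown and binding, 1 passed, 11 were negative and 5 positive, with a median of -0.35. The call was *Hmmr*, a hyaluronan receptor that also binds the mitotic spindle. It stood at 10.9 ± 1.61 CPM (SD, n = 3) against 22.6 ± 4.64 CPM (SD, n = 4), or -1.06 on the log2 scale (SE 0.18, adjusted p = 0.0416), and its call held in 2 of 7 fits with a library left out. *Lyve1*, a hyaluronan receptor of lymphatic vessels and some macrophages, had the lowest log2 fold change, -1.32 (SE 0.57, adjusted p = 0.245; -2.20 without *Bmal1*-/- replicate 2), and *Stab2*, a scavenger receptor, the highest, 0.40 (adjusted p = 0.400).

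Of 18 proteases and chain-degrading enzymes, 2 passed, 12 were negative and 6 positive, with a median of -0.13. *Adamts8*, which encodes a secreted metalloprotease, stood at 1.24 ± 0.195 CPM (SD, n = 3) against 4.24 ± 1.11 CPM (SD, n = 4), or -1.78 on the log2 scale (SE 0.25, adjusted p = 0.0203). *Timp3*, which encodes an inhibitor of these proteases and not a protease, stood at 173 ± 16.8 against 308 ± 41.4 CPM, a log2 fold change of -0.83 (SE 0.13, adjusted p = 0.0289). Its antisense neighbour *Syn3* is itself counted. The calls of *Adamts8* and *Timp3* held in 3 and in 1 of 7 fits with a library left out.

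Of 27 receptors and ligands of these proteins, 1 passed, 15 were negative and 12 positive, with a median of -0.08. The call was *Fbln2*, which encodes fibulin-2, a ligand of the C-terminal end of lecticans. It stood at 27.9 ± 8.46 CPM (SD, n = 3) against 73.4 ± 7.83 CPM (SD, n = 4), or -1.39 on the log2 scale (SE 0.20, adjusted p = 0.0197), and held in 3 of 7 fits with a library left out. The fibroblast and meningeal markers named above were negative beside it, with a median of -1.07, and their part in the *Fbln2* value was not tested. The highest was *Itgav*, which encodes the integrin αV subunit that binds tenascin-C, at 376 ± 35.1 against 243 ± 31.9 CPM, a log2 fold change of 0.63 (SE 0.12, adjusted p = 0.0560).

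**Figure D5:**
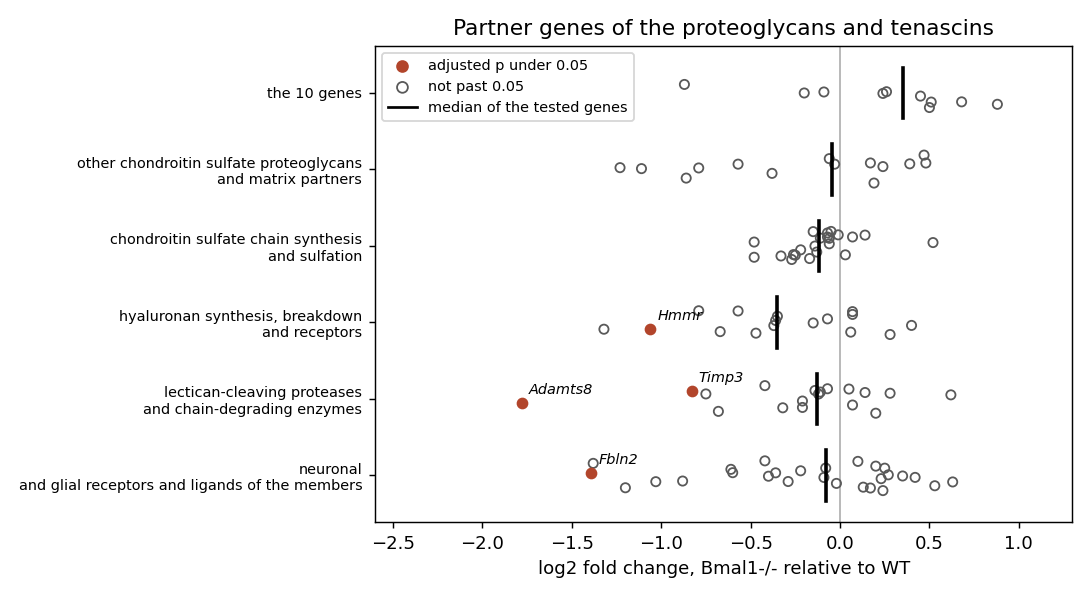
Log2 fold change (horizontal axis, labelled *Bmal1*-/- relative to WT) of the 10 genes and of each partner gene, with a row for each list, filled points where the adjusted p was under 0.05 and a black bar at the median. The 10 genes have a median of 0.35, the hyaluronan list has -0.35, and the 4 filled points are *Hmmr*, *Adamts8*, *Timp3* and *Fbln2*.

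Members whose level spanned more than 1 on the log2 scale over the 7 libraries were set beside the genes most like them, by the root mean square difference of centred log2 CPM. *Ncan* was nearest to *Spon1* (0.119), which encodes F-spondin, and to *Gm21897* (0.126). *Spon1* had the same log2 fold change as *Ncan*, 0.88, and an adjusted p of 0.0128 by edgeR. The distance takes in the difference between the groups, so like fold changes follow from how these genes were picked. *Tnc* was nearest to *Cdca2* (0.064), a gene of mitosis, and to *Ets1* (0.064), a transcription factor gene. *Tnr* was nearest to *Kazald1* (0.055) and *Ahcyl2* (0.056), *Hapln1* to *Rnf157* (0.044) and *Slc6a17* (0.048), and *Hapln4* to *Gpr22* (0.045) and *Cnnm1* (0.053). The 7 libraries include WT replicate 3, whose deviation enters each of these distances.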

How the data were processed

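RNASeq was done on the contused cord of 3 mice labelled *Bmal1*-/- and 4 WT mice. The authors used a stranded poly-A kit, Tophat2 with GRCm38.p6 and HTSeq (0.10.0 in the submitters' processing notes), and they deposited raw gene counts, 1 library per mouse, with no normalization. The annotation release and strand setting of the counting are not given in the sources used here, so genes with an antisense partner are uncertain.

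Genes with low counts were removed with filterByExpr, which left 15743 of 21965. Counts were scaled with TMM and tested on genotype with edgeR's quasi-likelihood test (edgeR 4.0.16, R 4.3.3), with Benjamini-Hochberg adjustment over all genes tested and a threshold of 0.05. The study's own test, DESeq2 (1.42.0), was an alternative, as were limma-voom (limma 3.58.1), RLE and upper-quartile factors, other filters, sex, a replicate block and leaving out each library. The fits were tested on simulated data. CPM used TMM-scaled totals, and log2 CPM a prior count of 2. Positions, lengths and overlaps came from GENCODE M21, to which 21939 genes matched. Library totals were 38529644 counts or more, and the lowest count of a member was 90. Counting error and spread between mice were not separated.

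Named were the 10 genes; partner genes past the threshold or, where under 2 passed, also the lowest and highest of a list; the 2 genes most like each member that spanned over 1 on the log2 scale; and *Arntl*. A result for *Acan* under this rule is not reported here. *Gfap*, *Hapln3*, *Nr1d1* and *Dbp* were named after their values were seen. The members, the lists and these rules were chosen with earlier results of these data known. Figures were made in python 3.11.15 with matplotlib 3.10.9.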

Additional observations from a re-analysis of the deposited data

Results flagged for a closer look

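The ratio of *Tnc* to *Tnr* per kilobase had 1 WT library far from the others. WT replicate 3 stood at 3.75 and the other WT libraries at 1.18 to 1.47, so the gap to its neighbour took up 0.887 of the range of the 4 libraries, above the critical value of Dixon's test. This was 1 of 22 quantities examined in this way, and chance alone flags about 1 in 20 groups. Libraries labelled *Bmal1*-/- stood at 0.562 to 0.819, below each WT library with and without WT replicate 3.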

How the results depend on the processing

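Of 150 values of the 10 genes under 15 alternatives each, 144 kept their sign and their side of the threshold, 0 reversed and 6 newly passed it. The number of the 10 genes past an adjusted p of 0.05 was 0 with all libraries, 2 with DESeq2 (*Ncan* and *Tnc*), 1 with RLE size factors (*Ncan*), and 0 to 2 with a library left out (2 without WT replicate 3, 1 without WT replicate 4). The number of partner genes was 4, against 18 with DESeq2, 0 with the replicate block and 0 to 11 with a library left out. The cause was not tested. The replicate numbers did not pair the libraries: deviations of same-numbered libraries correlated at -0.174, 0.183 and -0.295, and with the block 0 of the 10 genes passed (*Ncan* at 1.01, adjusted p = 0.117). Of 75 list medians under alternatives, 72 kept their sign and 2 moved by over 1 SD, both of chain synthesis: -0.15 with upper-quartile factors and -0.09 without WT replicate 3. With 3 against 4 mice, the 95% intervals of *Hapln1* (-0.28 to 1.27), *Hapln4* (-0.06 to 1.42), *Acan* (-0.13 to 1.15) and *Tnc* (-1.40 to -0.35) were the widest of the 10 genes.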
